A study of Mus musculus with 37 samples.

Results

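The genes described are 28 subunits of integrins and laminins, 18 integrin genes and 10 laminin chain genes, out of 18194 genes that the platform annotation names on a probe set with 1 symbol. They are all genes whose symbol is Itga, Itgb, Lama, Lamb or Lamc with a number, without the leukocyte subunits Itgam, Itgax, Itgal, Itgad, Itgae and Itgb2. Genes whose symbols merely begin alike, Itgb1bp1, Itgb1bp2, Itgb2l and Itgb3bp, were read as other genes and left out. Each gene is given by the probe set with the highest mean over all arrays. RNA was measured on 37 one-colour arrays of primary astrocytes from newborn mice, electroporated with a hygromycin-resistance plasmid that carried CDCA7L or with the same plasmid empty, and stably transfected. The cells with Cdca7l came from 129S4/SvJae (129) females (4 arrays) and males (5) and from C57BL/6J (B6) females (4) and males (5), and the cells with the vector came from 129 females (4), 129 males (5), B6 females (5) and B6 males (5). The design text calls the cultures independent isolates. Each array also has a clone label such as 3(1), which Cdca7l and vector arrays of a strain and sex may share, and the labels do not say what a clone is or whether a culture held more than 1 founder cell or animal.

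Laminins are large trimers of an alpha, a beta and a gamma chain that build the scaffold of basement membranes, and integrins are pairs of an alpha and a beta subunit that hold cells to laminin, collagen, fibronectin and other ligands and link them to the cytoskeleton. In the brain, astrocytes lay down laminin at the surface of the brain and around vessels, and their endfeet hold to it through integrins and dystroglycan. The partner of most alpha subunits is Itgb1, while Itgb5 and Itgb8 pair with Itgav, a subunit outside the rule that ran from 13.80 to 14.30 in 129 and from 13.71 to 14.29 in B6 (log2), with a difference of -0.0050 ± 0.0631 (SE; limma adjusted p = 0.963).

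The 250 bases before the annotated start are printed for 4 members whose RNA differed between the strains in the results that follow: Lamb1, Itga5 and Itgb1, higher in 129, and Itga1, lower in 129. The sequences are from RefSeq, build GRCm38.p6, which is the sequence of C57BL/6J mice, so they show no base that is particular to 129. They lie at chr12:31265043-31265292 (plus strand) for Lamb1, chr15:103366792-103367041 (minus strand) for Itga5, chr8:128685404-128685653 (plus strand) for Itgb1 and chr13:115101965-115102214 (minus strand) for Itga1. Capitals mark the GC box, GGGCGG or its reverse complement CCGCCC.

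Lamb1: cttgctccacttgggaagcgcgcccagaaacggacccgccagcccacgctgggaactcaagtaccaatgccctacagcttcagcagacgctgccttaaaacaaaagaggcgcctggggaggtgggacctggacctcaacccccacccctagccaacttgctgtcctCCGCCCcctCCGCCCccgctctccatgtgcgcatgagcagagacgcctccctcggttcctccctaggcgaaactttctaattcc
Itga5: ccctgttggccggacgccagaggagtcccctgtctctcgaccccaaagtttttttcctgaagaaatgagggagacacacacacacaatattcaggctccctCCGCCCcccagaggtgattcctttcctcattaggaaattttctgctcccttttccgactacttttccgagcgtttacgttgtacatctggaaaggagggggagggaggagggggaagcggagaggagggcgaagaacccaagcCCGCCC
Itgb1: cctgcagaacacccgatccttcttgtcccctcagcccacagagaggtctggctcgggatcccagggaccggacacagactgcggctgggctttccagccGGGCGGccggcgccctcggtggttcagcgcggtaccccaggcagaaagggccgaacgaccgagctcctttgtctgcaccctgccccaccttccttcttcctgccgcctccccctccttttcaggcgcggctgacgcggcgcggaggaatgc
Itga1: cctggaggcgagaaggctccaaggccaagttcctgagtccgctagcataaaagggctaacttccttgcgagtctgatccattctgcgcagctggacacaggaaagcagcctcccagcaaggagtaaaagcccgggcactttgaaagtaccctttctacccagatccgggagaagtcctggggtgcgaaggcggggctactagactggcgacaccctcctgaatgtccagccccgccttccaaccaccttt

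Lamb1 and Itga5 hold 2 such matches each, Itgb1 holds 1 and Itga1 holds none in this window. Among members not printed, Lama5, lower in 129, holds 4, and Itga9, higher in 129, holds none. Among 32851 promoters of this length, 32.7% hold at least 1. The table had a promoter for 19 of the 28 members, and 7 of these 19 hold a match. A match is a run of letters and does not show that a factor binds there.

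All expression values are log2 values, and 3.19, the median of the whole table, served as the background level. Of the 28 members, 12 exceeded it on every array: Lama2, Lama5, Lamb2, Lamc1, Itga1, Itga3, Itga5, Itga6, Itga7, Itgb1, Itgb5 and Itgb8. No array exceeded it for 6 members, Lamb3, Lamc3, Itga2b, Itgb4, Itgb6 and Itgb7, among them chains and subunits typical of epithelia (Lamb3, Itgb4, Itgb6), platelets (Itga2b) and lymphocytes (Itgb7). The other 3 were above it on fewer than the 4 arrays needed for a test. Itga2, a collagen receptor subunit, reached 4.02 on 129 male vector 3(3), and Itga10, another collagen receptor subunit, reached 3.57 on 129 female Cdca7l 2(3) and 4.20 on 129 male Cdca7l 3(2). Itgb3, which pairs with Itgav, reached 7.36 on 129 male Cdca7l 3(1), 5.51 on 129 male vector 3(1) and 8.89 on 129 male vector 3(3), and lay at 2.12 or below on the other 34 arrays. The remaining 19 members, 11 integrins and 8 laminins, were tested, and a gene that passed the filter through 129 arrays alone had to differ between the strains, as stated beside Itga9 and Lama1. A like limit is stated beside Lama3.

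Across the series the Cdca7l probe set was higher by 4.61 ± 0.484 (SE, log2) with the plasmid than with the vector (limma adjusted p = 1.25e-06). Arrays of some clone labels stood apart in both constructs. On the 4 arrays of 129 male 3(1) and 5(1), the mean of 10 fibroblast and meningeal markers lay between 11.16 and 11.28, against 5.21 to 8.51 on the other 14 arrays of 129 and 5.12 to 6.51 in B6. On the 4 arrays of 129 female 2(1) and 4(1), the mean of 10 astrocyte markers lay between 8.27 and 9.27, against 9.76 to 11.33 on the other 14 arrays of 129 and 9.94 to 11.48 in B6. Strain differences of the members that rest on these arrays are given with and without them, in comparisons added after the values were seen. The array 129 female vector 1(3) has the lowest upper quartile of all (8.36). The array labelled B6 female vector 5.1(1) went against its label: Xist, the RNA of the silenced X chromosome, was at 2.40 there, against 10.71 to 12.20 on the other 16 arrays labelled female and 2.30 to 2.50 on the 20 labelled male, and the Y-linked Eif2s3y was at 11.91, against 2.26 to 2.73 on those 16 and 11.73 to 12.71 on those 20. Both arrays stayed in the comparisons under their labels, and values without them are given where a call changed.

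The strain comparison asked whether astrocytes of 129 and B6 mice differ in these genes, averaged over sex and construct. In 129 astrocytes the laminin chains Lamb1, Lama4, Lama1 and Lama3 and the integrin subunits Itga4, Itga5, Itga9, Itgb1 and Itgb5 were higher, and Itga1, Lama5 and Itgb8 were lower. The largest difference was in Lamb1, at 9.63-fold, followed by Lama4 (3.98-fold), Itga4 (3.94-fold) and Itga5 (3.81-fold). Of the 28 members 12 passed limma at an adjusted p under 0.05, 9 higher and 3 lower. Among the 17 tested members with arrays above background in both strains, which leaves out Itga9 and Lama1, 10 passed, 7 higher and 3 lower. The 7 include Lama3, with 1 B6 array above background, which reached the 4 arrays needed for a test only through 129. The background is high: of 25579 probe sets, 25.2% passed, 10.6% higher and 14.6% lower, and the median difference was 0.0047 over all probe sets against 0.74 over the 19 members tested. These 19 include Itga9 and Lama1, which entered the test through 129 alone and so had to lie above 0, which raises that median. Lama3 likewise needed its 129 arrays to enter the test. Over both sexes together no member had the strains fully apart. Within females and within males this held for each of the 19 but Itga9, whose B6 values all lie under the background level.

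**Figure D1:**
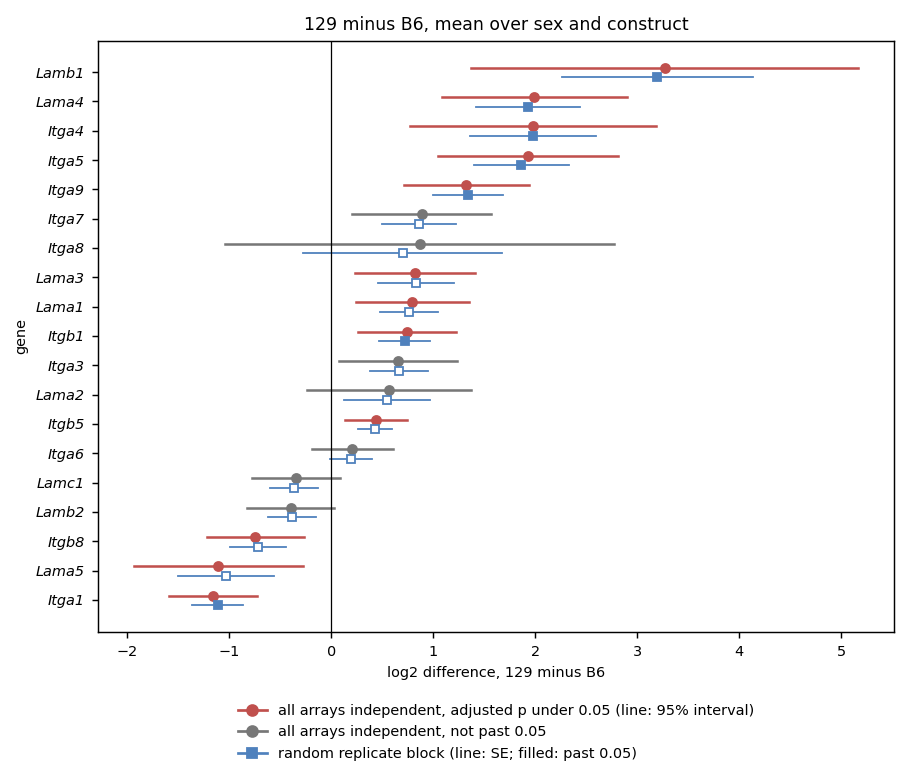
Differences of the 19 members tested, 129 minus B6 on the log2 scale (horizontal axis), as circles with 95% intervals from the fit that treats arrays as independent (red: adjusted p under 0.05, 12 genes) and as blue squares with their SE from the fit with the clone label as a random block (filled: past 0.05, 7 genes). Lamb1 lies farthest to the right at 3.27 and Itga1 farthest to the left at -1.16.

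These p-values take the Cdca7l and the vector array of a clone label as independent, although their values are correlated (0.409 over all probe sets). With the clone label as a random block, 7 of the 12 calls remained, those of Lamb1, Lama4, Itga4, Itga5, Itga9, Itgb1 and Itga1, and 16.6% of all probe sets passed. The other 5 had adjusted p = 0.0603 for Lama1, 0.0657 for both Itgb5 and Itgb8, 0.120 for Lama3 and 0.129 for Lama5 in that fit. Itga9, among the 7 that remained, had no B6 array above background, so its call there does not bear on how stable the difference is.

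Lamb1 encodes the beta chain of the early and widespread laminins. Over the 18 arrays of 129 it ran from 2.95 to 12.94 with a median of 10.42, and over the 19 arrays of B6 from 2.35 to 10.12 with a median of 6.11. Of the 129 arrays 9 lay above the highest B6 array, 7 of the other 9 lay above the B6 median, and the 2 lowest were both of 129 female 1(3). All 3 tested Lamb1 probe sets passed in the same direction, although the third averaged 2.74 and exceeded background on 6 of 37 arrays. With the first, the difference was 3.27 ± 0.93 (SE, log2; adjusted p = 0.0107). The value rests on a few clone labels: without 129 male 3(1) and 5(1) the difference was 2.41 (adjusted p = 0.0853), without 129 female 2(1) and 4(1) it was 1.76 (adjusted p = 0.220), and without both pairs of labels it was 0.90 (adjusted p = 0.589).

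The single arrays show how Lamb1 followed the clone label. In 129 females with Cdca7l the array of 4(1) was at 12.43, 2(1) at 12.19, 2(3) at 8.62 and 1(3) at 3.62, and with the vector 4(1) was at 12.32, 2(1) at 12.26, 2(3) at 9.82 and 1(3) at 2.95. In 129 males with Cdca7l the values were 12.94 for 3(1), 12.81 for 5(1), 8.21 for 3(3), 7.53 for 3(2) and 6.98 for 1(4), and with the vector 12.58 for 3(1), 12.45 for 5(1), 11.01 for 3(3), 9.11 for 5(2) and 7.52 for 3(2). So in 129 the same labels were at the top with either construct, and 1(3) was at the bottom of the females with either construct. In B6 females with Cdca7l Lamb1 was at 10.12 in 6(3), 6.47 in 3(3), 5.84 in 4(5) and 5.56 in 1(4), and with the vector at 9.40 in 6(3), 7.81 in 2.1(1), 6.34 in 4(5), 5.99 in 3(3) and 5.46 in 5.1(1). In B6 males with Cdca7l it was at 9.20 in 4(3), 7.68 in 5(3), 6.49 in 2(2), 6.11 in 3(5) and 2.35 in 5.6(1), and with the vector at 10.02 in 4(3), 5.83 in 2(4), 4.10 in 3(5), 3.94 in 2(2) and 2.82 in 5.6(1). In B6, 6(3) of the females and 4(3) of the males were highest and 5.6(1) of the males lowest with either construct.

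**Figure D2:**
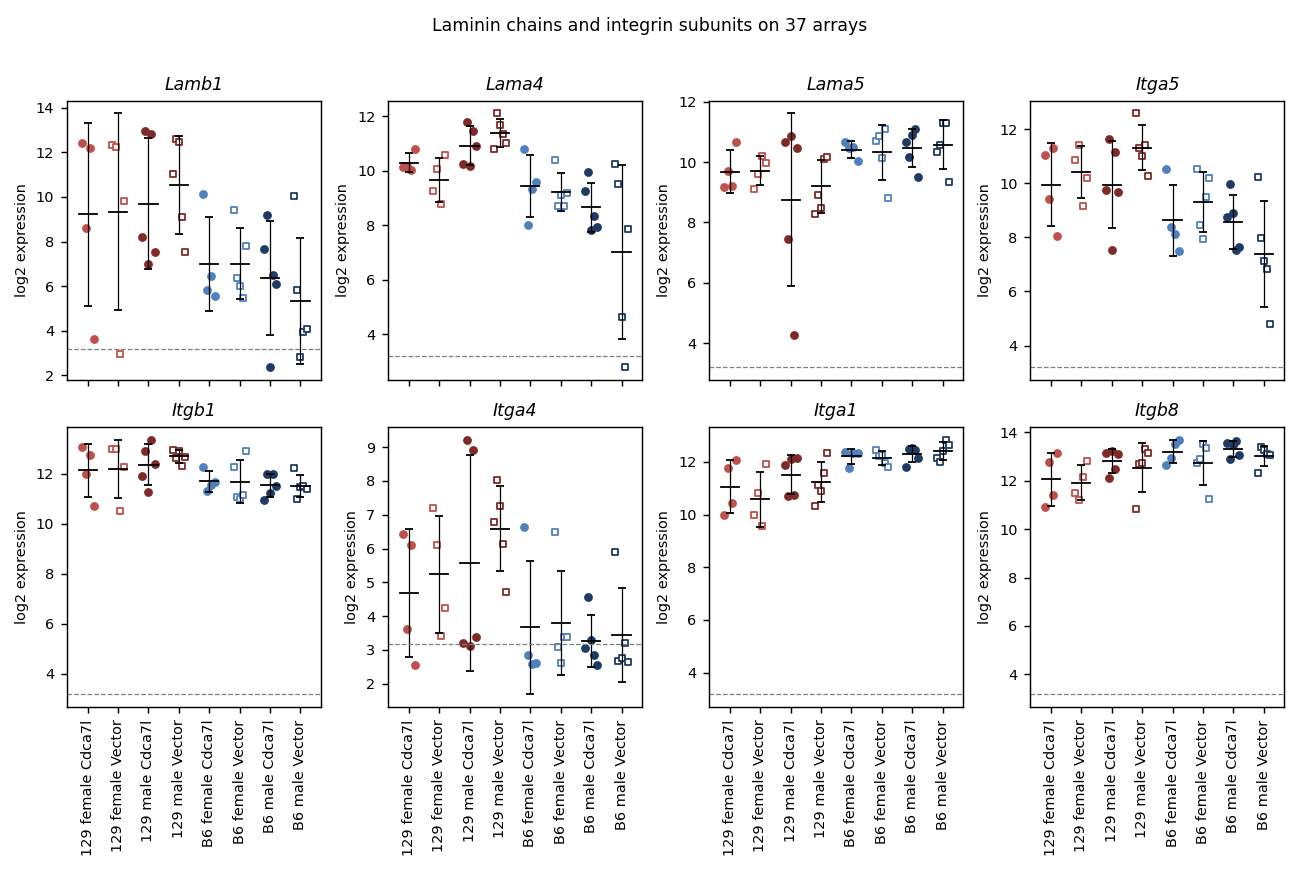
Log2 expression of 8 members on each array (circles: Cdca7l, open squares: vector; red: 129, blue: B6), by group along the horizontal axis, with the group mean and SD (n = 4 or 5) in black and the background level of 3.19 as a dashed line. Lamb1 ranges from 2.35 to 12.94, and the lowest values of Lama4 (2.77) and Itga5 (4.78) are both in B6 males with the vector.

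Lama4, the alpha chain of laminins around vessels and in mesenchymal tissue, ran from 8.78 to 12.11 (median 10.69) in 129 and from 2.77 to 10.80 (median 9.10) in B6. Of the 129 arrays 7 exceeded the highest B6 array, and 2 arrays of B6 males with the vector, 2(2) at 2.77 and 5.6(1) at 4.64, lay far below the rest. Both Lama4 probe sets passed, although the second averaged 2.92, under the background level, and exceeded that level on 7 of 37 arrays. With the first, the difference was 1.99 ± 0.445 (SE, log2; adjusted p = 0.00158). It was 1.79 (adjusted p = 0.0159) without 129 male 3(1) and 5(1), 2.04 (adjusted p = 0.0108) without 129 female 2(1) and 4(1), and 1.84 (adjusted p = 0.0568) without both.

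Lama5, the alpha chain that follows Lama1 in most mature basement membranes, was lower in 129, from 4.26 to 10.88 (median 9.67) against 8.82 to 11.31 (median 10.57) in B6. Of the 129 arrays 4 lay under the lowest B6 array, the lowest being 129 male Cdca7l 5(1) at 4.26. The difference of -1.11 (adjusted p = 0.0434) became -0.54 (adjusted p = 0.125) without 129 male 3(1) and 5(1), and it passed in 14 of the 37 fits that each left out 1 array. Without 129 female vector 1(3) and B6 female vector 5.1(1) together its adjusted p was 0.0557. Its second probe set also passed, at -1.18.

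Lama1, the alpha chain of the earliest embryonic laminin, was above background on 5 of 18 arrays of 129 and on none of 19 in B6, so it entered the test through 129 alone and its fold cannot be given. The 5 arrays were the 4 of 129 male 3(1) and 5(1), between 3.97 and 5.50, and 129 female Cdca7l 1(3) at 4.15. The fitted difference was 0.79 ± 0.271 (SE, log2; adjusted p = 0.0306), and 0.29 (adjusted p = 0.134) without those 4 arrays. Lama3, an alpha chain of epithelial laminins, was above background on 6 of 18 arrays of 129 and on 1 of 19 in B6, and reached 6.34 on 129 female Cdca7l 1(3). Its fitted difference was 0.82 (adjusted p = 0.0362), or 0.38 with lower values raised to the background level. Lama3 reached the 4 arrays needed for a test only through 129, so this p does not bear on how stable the difference is.

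The 3 laminin chains left did not pass. Lamc1, the gamma chain of nearly all laminins, ran from 7.98 to 11.67 (median 11.42) in 129 and from 11.03 to 11.84 (median 11.33) in B6, with a difference of -0.35 (adjusted p = 0.224). Its lowest value, 7.98, was on 129 female vector 1(3). Without 129 female 2(1) and 4(1) the Lamc1 difference was -0.77 (adjusted p = 0.00328), in a fit that kept that array. The second Lamc1 probe set, with all arrays kept, showed 0.10 (adjusted p = 0.801) over both sexes and -0.58 (adjusted p = 0.289) in females. Lamb2, the beta chain of synaptic and mature basement membrane laminins, had a difference of -0.40 (adjusted p = 0.157), and Lama2, the alpha chain of the laminin on astrocyte endfeet and muscle, of 0.56 (adjusted p = 0.298).

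Among the laminin receptors none passed. Itga7 ran from 6.82 to 9.92 (median 7.97) in 129 and from 5.83 to 9.05 (median 7.60) in B6, with a difference of 0.89 (adjusted p = 0.0507). It passed without 129 male 3(1) and 5(1), at 1.13 (adjusted p = 0.0307), and without 129 female vector 1(3) and B6 female vector 5.1(1), at 1.06 (adjusted p = 0.0215). Itga3, which pairs with Itgb1 to bind laminin, had a difference of 0.66 (adjusted p = 0.0855), and Itga6, the receptor subunit for most laminins, of 0.21 (adjusted p = 0.446). The 4 highest Itga3 arrays of the series were B6 female 6(3), at 12.04 with Cdca7l and 12.23 with the vector, and B6 male 4(3), at 12.26 with Cdca7l and 12.20 with the vector.

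Itga1, which pairs with Itgb1 to bind collagen IV and laminin, was lower in 129: it ran from 9.58 to 12.33 (median 11.02) in 129 and from 11.79 to 12.84 (median 12.35) in B6. Of the 18 arrays of 129, 12 lay under the lowest B6 array. The difference was -1.16 ± 0.21 (SE, log2), 2.23-fold, with the smallest adjusted p of all members (0.000155). It was -0.99 (adjusted p = 0.00258) without 129 male 3(1) and 5(1), -0.90 (adjusted p = 0.00526) without 129 female 2(1) and 4(1), and -0.73 (adjusted p = 0.0313) without both. Its second probe set had a difference of -0.49 (adjusted p = 0.117).

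Itga5, the fibronectin receptor subunit, ran from 7.52 to 12.58 (median 10.94) in 129 and from 4.78 to 10.52 (median 8.37) in B6, and 10 arrays of 129 lay above the highest B6 array. The difference was 1.93 ± 0.432 (SE, log2; adjusted p = 0.00161). It was 1.71 (adjusted p = 0.0127) without 129 male 3(1) and 5(1), 1.44 (adjusted p = 0.0460) without 129 female 2(1) and 4(1), and 1.23 (adjusted p = 0.138) without both. The second Itga5 probe set showed -0.012 (adjusted p = 0.988), so it did not show the difference. It averaged 3.60 and was above background on 12 of 37 arrays, where the first was above it on all 37. Whether the probe sets of this gene agree can therefore not be judged well.

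Itgb5, which pairs with Itgav to bind vitronectin, differed little: it ran from 12.07 to 13.31 (median 12.76) in 129 and from 11.58 to 12.99 (median 12.19) in B6. The difference was 0.44 ± 0.149 (SE, log2), 1.35-fold (adjusted p = 0.0310), and all 4 tested probe sets passed. Itgb8, whose pair with Itgav on astrocytes activates latent TGF-beta, was lower: it ran from 10.81 to 13.32 (median 12.71) in 129 and from 11.24 to 13.67 (median 13.12) in B6. Its difference was -0.74 ± 0.235 (SE, log2; adjusted p = 0.0200). Without 129 female 2(1) and 4(1), the difference was -0.37 (adjusted p = 0.301) for Itgb8 and 0.34 (adjusted p = 0.187) for Itgb5.

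Itga8, a subunit of mesenchymal cells that binds nephronectin, had the widest spread of any member after Lamb1. It ran from 2.80 to 12.50 (median 4.09) in 129 and from 2.33 to 7.68 (median 3.94) in B6. On 129 male 3(1) it was at 12.39 with Cdca7l and 11.55 with the vector, and on 5(1) at 12.50 with Cdca7l and 11.14 with the vector, whereas the other 14 arrays of 129 did not exceed 6.80. The strain difference was 0.87 (adjusted p = 0.518) and, without those 4 arrays, -0.78 (adjusted p = 0.406).

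Itga4, a subunit of leukocytes and of neural crest and mesenchymal cells, was above background on 16 of 18 arrays of 129 and on 8 of 19 in B6. It ran from 2.56 to 9.21 (median 6.11) in 129 and from 2.55 to 6.62 (median 3.06) in B6. The difference was 1.98 ± 0.59 (SE, log2; adjusted p = 0.0143), or 1.76 with lower values raised to the background level. Without 129 male 3(1) and 5(1) it was 1.22 (adjusted p = 0.0940), without 129 female 2(1) and 4(1) 1.23 (adjusted p = 0.208), and without both 0.47 (adjusted p = 0.593). Itga9, a subunit that binds tenascin-C, was above background on 9 of 18 arrays of 129 and on none of 19 in B6, and so entered the test through 129 alone. Its mean was 3.61 in 129 and 2.28 in B6, at least 1.34-fold higher in 129 when set against the background level (adjusted p = 0.00183). Since all its B6 values lie under the background level, neither the p nor its value without other arrays bears on how stable the difference is. Its second probe set showed 0.24 (adjusted p = 0.0842).

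Itgb1, the common partner of the alpha subunits above, ran from 10.51 to 13.33 (median 12.64) in 129 and from 10.96 to 12.89 (median 11.49) in B6. The difference was 0.74 ± 0.237 (SE, log2; adjusted p = 0.0215), and all 5 tested probe sets passed, with 0.31 to 1.97. It was 0.60 (adjusted p = 0.104) without 129 male 3(1) and 5(1), 0.35 (adjusted p = 0.342) without 129 female 2(1) and 4(1), and 0.21 (adjusted p = 0.642) without both.

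With each of the 37 arrays left out in turn, 8 of the 12 strain calls passed each time, and those of Lama5, Lama3, Itgb5 and Lama1 did not. The 8 include Itga9, which entered the test through 129 alone, so its passing does not bear on how stable the difference is. Without 129 male 3(1) and 5(1), 4 of the 12 remained (Itga1, Itga5, Itga9 and Lama4), without 129 female 2(1) and 4(1), 5 remained (these 4 and Lama3), and without both, 4 remained (Itga1, Itga9, Lama1 and Lama3). Itga9 and Lama1 had no B6 array above background in any of these fits, and Lama3 had 1, so Itga1 was the only one of these last 4 measured well above background in both strains. The share of all probe sets past the threshold was 16.0%, 13.3% and 9.19% in these comparisons.

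Several cell type markers passed between the strains as well, and their counts are read against the 25.2% of all probe sets that passed. Over the fibroblast and meningeal markers, whose mean ran from 5.21 to 11.28 in 129 and from 5.12 to 6.51 in B6, 4 of 9 tested rose and 1 fell in 129. The collagen genes Col1a2 (2.75) and Col1a1 (3.02) rose, as did Col3a1 and Dcn, whose B6 means of 2.47 and 2.53 lie under the background level. Ogn, a small proteoglycan, fell by 0.65 on the log2 scale. Of these markers 9 of 10 were above background on at least 1 array, Slc6a13 on none. Over the astrocyte markers, with a mean from 8.27 to 11.33 in 129 and from 9.94 to 11.48 in B6, 4 of 9 tested fell and none rose. They were the water channel Aqp4 (-0.93), the glutamate transporter Slc1a3 (-0.96), the transcription factor Sox9 (-0.77) and the receptor Fgfr3 (-0.76). Without both sets of clone labels that stand apart, none of the 9 astrocyte markers passed (Aqp4 -0.48, adjusted p = 0.158), and of the fibroblast and meningeal markers 2 rose and none fell (Col1a2 1.75, adjusted p = 0.0253, and Col3a1, while Col1a1 had 2.43, adjusted p = 0.0677). All 8 microglia and macrophage markers tested had a higher mean in 129, with a median difference of 0.87 over both sexes and 1.27 in males, but none passed limma (1 had an unadjusted p under 0.05 over both sexes). The mean of all 14 listed ran from 2.49 to 7.43 in 129 and from 2.49 to 6.17 in B6. Among them Cx3cr1, P2ry12, Trem2 and Itgam were at or below background on all 37 arrays. Cd68 exceeded it on all 37, Emr1 on 23, Laptm5 on 22, C1qb on 18 and Tyrobp on 12. Csf1r exceeded it on 11, Ptprc on 9, C1qc on 4, and Aif1 and C1qa on 3 each. Of the endothelial markers 2 of 10 were tested and 1 rose (Flt1). Flt1 was above background on 8 arrays, Kdr on 4, Emcn on 3, Esam on 2 and Tek on 1. Pecam1, Cdh5, Cldn5, Tie1 and Vwf were at or below background on all arrays. Of the other lists, whose few members make a count hard to set against that 25.2%, 2 of 5 tested pericyte and smooth muscle markers fell, 1 of 7 ependymal and choroid plexus markers rose and 3 fell, 2 of 5 oligodendrocyte lineage markers fell, and 1 of 6 neuron markers rose and 3 fell. The part of these markers in the strain differences was not tested, and in such bulk RNA fewer cells of a type and less RNA per cell cannot be told apart.

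**Figure D3:**
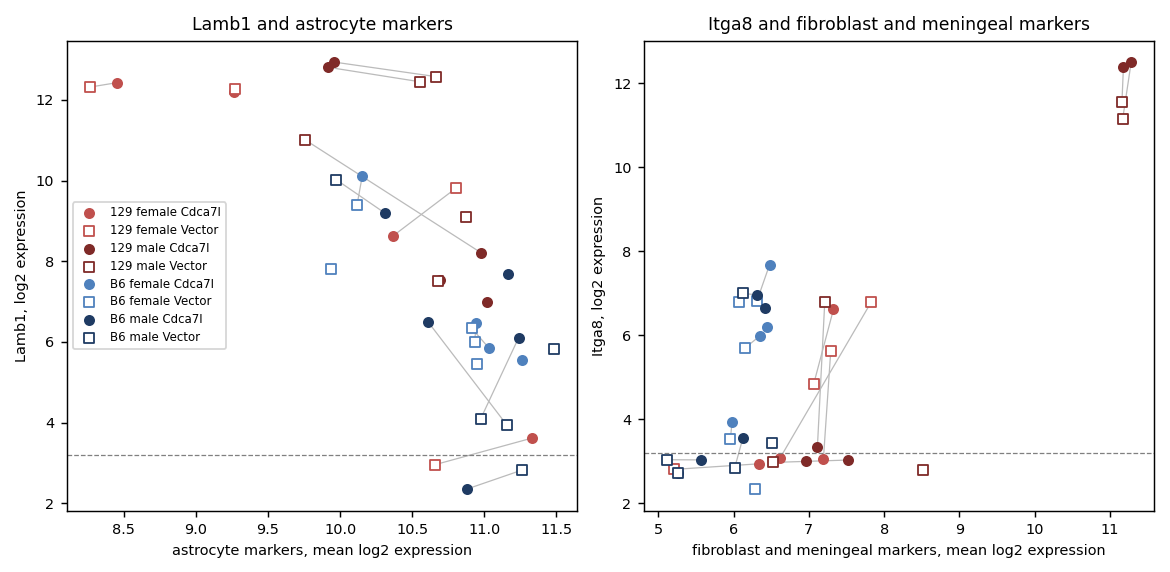
Each point is 1 array (circles: Cdca7l, open squares: vector; red: 129, blue: B6), and lines join arrays of the same strain, sex and clone label. Left, Lamb1 against the mean of the astrocyte markers, where 129 female 2(1) and 4(1) lie alone at 8.27 to 9.27 on the horizontal axis; right, Itga8 against the mean of the fibroblast and meningeal markers, where 129 male 3(1) and 5(1) lie alone at 11.16 to 11.28 (all axes log2, dashed line: background level).

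Of the 11 calls within the sexes, 10 were of members that also passed over both sexes, and the other was of Itga7 in females. In females 3 members passed, 1 higher and 2 lower, where 17.6% of probe sets passed (5.55% higher, 12% lower): Itga7 was higher at 1.46 ± 0.494 (SE, log2; adjusted p = 0.0398), and Itga1 was lower at -1.35 ± 0.309 (adjusted p = 0.00349) and Itgb8 at -0.99 ± 0.346 (adjusted p = 0.0461). With the clone label as a random block Itga1 alone passed (adjusted p = 0.0236; Itga7 0.111, Itgb8 0.130), and 8.26% of probe sets did. Without 129 female 2(1) and 4(1) none of these 3 passed, with Itga1 at -0.84 (adjusted p = 0.136), and Lamc1 did (-1.48, adjusted p = 0.00126). The arrays of 129 females left in that fit, of 2(3) and 1(3), include vector 1(3), which has the lowest Lamc1 value of all arrays (7.98). Lama3 passed there too, but none of the 9 arrays of B6 females was above background for it, so no difference is given. Without 129 female vector 1(3) and B6 female vector 5.1(1), the array that goes against its label, Itga1 (-1.21, adjusted p = 0.0117) and Itga7 (1.80, adjusted p = 0.0182) passed and Itgb8 (-0.95, adjusted p = 0.0776) did not. With each of the 37 arrays left out in turn, Itga1 passed each time, Itga7 28 times and Itgb8 18 times. The second Itga1 probe set, above background on all 37 arrays, did not pass in females, at -0.40 (adjusted p = 0.451).

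In males 8 members passed, 7 higher and 1 lower (6, with 5 higher and 1 lower, among the 17 above background in both strains), where 10.5% of probe sets passed (6.17% higher, 4.32% lower). Lama4 was 10.0-fold higher (3.33 ± 0.602, SE, log2; adjusted p = 0.000312): the 10 arrays of 129 males lay between 10.19 and 12.11 and the 10 arrays of B6 males between 2.77 and 10.26. Lamb1 was 19.2-fold higher (4.26 ± 1.26; adjusted p = 0.0262), but the difference was 2.54 (adjusted p = 0.450) without 129 male 3(1) and 5(1). Higher too were Itga4 at 2.73 ± 0.797 (adjusted p = 0.0249), Itga5 at 2.65 ± 0.584 (adjusted p = 0.00285) and Itgb1 at 1.01 ± 0.32 (adjusted p = 0.0402). Itga9 and Lama1 entered the test through 129 alone, as no array of B6 males was above background for them. Itga9 averaged 4.24 in 129 males and 2.29 in B6 males, at least 2.07-fold (adjusted p = 0.00163), and Lama1 3.43 in 129 males and 2.16 in B6 males, at least 1.18-fold (adjusted p = 0.0236). Itga1 was lower at -0.96 ± 0.284 (adjusted p = 0.0260), while its second probe set, above background on all 37 arrays, was at -0.59 (adjusted p = 0.251). With the random block 3 remained, Lama4 (adjusted p = 0.00348), Itga9 (0.00703) and Itga5 (0.0131), and 5.24% of probe sets passed. Without 129 male 3(1) and 5(1) 2 remained, Lama4 at 2.92 (adjusted p = 0.0183) and Itga9, with its B6 arrays all under background. With each of the 37 arrays left out in turn, Lama4 and Itga5 passed each time, Itga4 34, Itga1 32, Lamb1 31 and Itgb1 23 times. Itga9 passed each time and Lama1 33 times, but no array of B6 males was above background for either. Their counts therefore do not bear on how stable these differences are.

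The strain by sex comparison asked whether the strain difference itself differed between males and females, and no member passed, nor did any of the 25579 probe sets (3917 had an unadjusted p under 0.05). The smallest p-values were those of Lama4 (2.67 ± 0.89, SE, log2, adjusted p = 0.188), Itga9 (1.25 ± 0.602, adjusted p = 0.318) and Itga8 (3.78 ± 1.87, adjusted p = 0.331). So the longer list in males is not shown to differ from the list in females.

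No integrin or laminin gene was called different between male and female astrocytes. Of the 28 members none passed in the male minus female comparison, where 0.321% of probe sets did (0.270% higher, 0.0508% lower), and 4626 probe sets had an unadjusted p under 0.05. The smallest p-values belonged to Itga9 (0.64 ± 0.301, SE, log2, adjusted p = 0.264), Itgb8 (0.45 ± 0.235, adjusted p = 0.306) and Lamb2 (0.39 ± 0.208, adjusted p = 0.311). The 95% interval ran from -2.05 to 1.74 for Lamb1 and from -0.32 to 0.28 for Itgb5, so these arrays bound the sex difference of Itgb5 more closely than that of Lamb1. Without 129 female vector 1(3) and B6 female vector 5.1(1) no member passed either, while 1.02% of probe sets did.

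The Cdca7l comparison asked whether raised Cdca7l changes these genes, and none of the 28 members passed in the mean of the 4 strain and sex groups. Of all probe sets 0.00782% did, and 324 had an unadjusted p under 0.05. The 19 members tested had a median difference of 0.0090, against 0.0204 over all probe sets, with 10 above 0. The smallest p was that of Itga7, the laminin receptor subunit of muscle and glia, at -0.81 ± 0.335 (SE, log2; adjusted p = 0.999), with a 95% interval from -1.49 to -0.12. Next were Itgb5 at -0.19 ± 0.149 and Itgb8 at 0.29 ± 0.235 (adjusted p = 0.999 for both). For Lamb1 the difference was 0.015 with an interval from -1.88 to 1.91, for Lama4 0.51 with an interval from -0.40 to 1.41, and for Itgb1 -0.09 with an interval from -0.57 to 0.40.

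**Figure D4:**
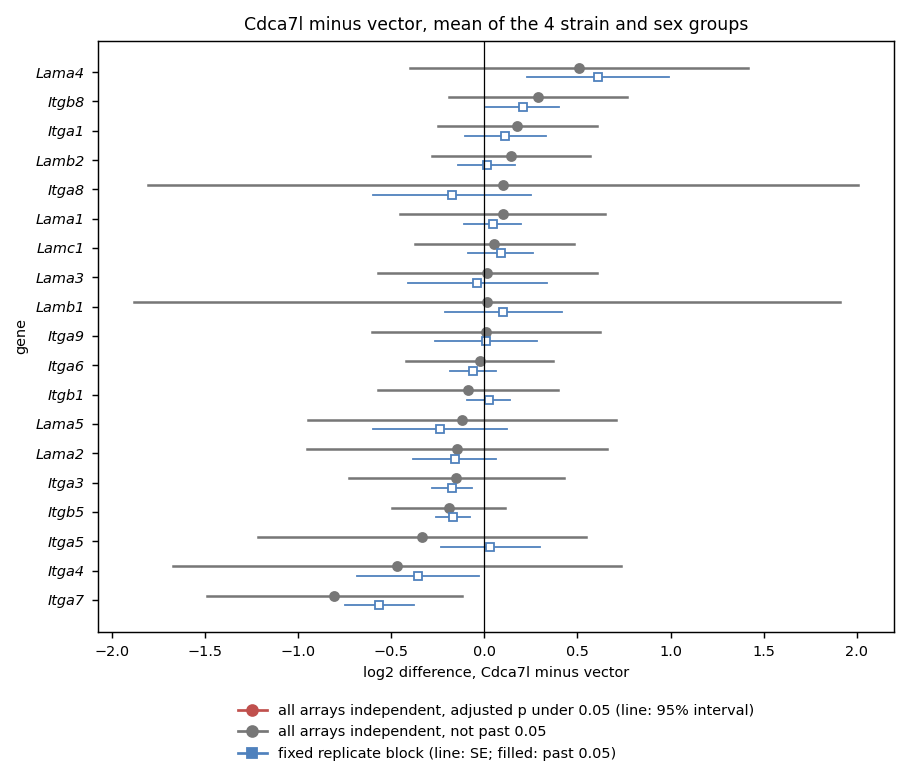
Differences of the 19 members tested, Cdca7l minus vector on the log2 scale, averaged over strain and sex, as grey circles with 95% intervals and, with the clone label as a fixed block, as blue squares with their SE. Itga7 lies farthest to the left at -0.81, no gene passed in either fit, and Itga8 and Lamb1 have the widest intervals.

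Itga7 shows the size of the spread. In 129 females it was at 9.76, 6.95, 9.00 and 7.20 with Cdca7l and at 9.44, 8.65, 9.15 and 7.64 with the vector, each in the order 4(1), 2(3), 2(1) and 1(3). In 129 males it was at 7.61 in 3(3), 7.05 in 3(1), 6.82 in 1(4), 7.26 in 5(1) and 8.69 in 3(2) with Cdca7l, and at 9.92 in 3(3), 6.92 in 3(1), 7.60 in 5(1), 8.29 in 5(2) and 9.26 in 3(2) with the vector. The groups overlapped in each strain and sex, and over the 15 clone labels that both constructs share Itga7 was lower with Cdca7l in 11 and higher in 4. With the clone label as a fixed block its difference was -0.56 ± 0.187 (adjusted p = 1.00 after rounding, unadjusted p = 0.0100).

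Within each strain and sex no member passed, and no probe set did either, with 503 probe sets at an unadjusted p under 0.05 in 129 females, 422 in 129 males, 142 in B6 females and 538 in B6 males. The Cdca7l probe set itself, higher with the plasmid across the series, was among those not called. A member that did not pass within a strain and sex is therefore not shown to be unchanged. In 129 females the smallest p-values were those of Lamc1 (0.55 ± 0.448, SE, log2), Itga1 (0.48 ± 0.449) and Itgb5 (-0.30 ± 0.319), and in 129 males those of Itga5 (-1.37 ± 0.826), Itga7 (-0.91 ± 0.641) and Itga4 (-1.02 ± 1.13). In B6 females they were those of Itga7 (-0.78 ± 0.68), Itgb5 (-0.31 ± 0.303) and Itgb8 (0.45 ± 0.476), and in B6 males those of Lama4 (1.64 ± 0.851), Itga7 (-1.04 ± 0.641) and Itga5 (1.18 ± 0.826). Lama4 in B6 males was at 9.24, 9.94, 7.82, 8.33 and 7.94 with Cdca7l and at 10.26, 9.50, 4.64, 2.77 and 7.87 with the vector, so 2 low vector arrays carry its difference. The Cdca7l effect did not pass as different between the strains for any member (429 probe sets at an unadjusted p under 0.05, none adjusted; smallest p for Itga5, -1.15 ± 0.863, Lama3, 0.59 ± 0.578, and Lama4, -0.85 ± 0.89). The same held between the sexes (184 probe sets; Itgb5, 0.23 ± 0.298, Lamc1, -0.31 ± 0.419, and Lama3, -0.42 ± 0.578).

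Of the genes that work with these subunits, a share of 71.4% passed between the strains among non-integrin laminin receptors, 34.6% among basement membrane genes and 21.9% among adaptors, against 25.2% of all probe sets, so the adaptors lay below that background and the basement membrane genes near it. Of 14 tested non-integrin laminin receptors and genes that link them to the cell, 1 rose and 9 fell in 129, with a median difference of -0.48 against 0.0047 over all probe sets. Among them were Sgce (-0.72 ± 0.136, SE, log2; adjusted p = 0.000263) and Sspn (-0.75 ± 0.203; adjusted p = 0.00719), parts of the dystroglycan complex, Pomt2 (-1.18 ± 0.271; adjusted p = 0.00196), which adds sugars to dystroglycan, and Utrn (-0.24 ± 0.0623; adjusted p = 0.00531), which ties it to actin. Of 26 tested basement membrane genes and other integrin ligands 4 rose and 5 fell, with a median of 0.08. Nidogen 2, Nid2, which bridges laminin and collagen IV, was at -1.59 ± 0.274 (adjusted p = 8.48e-05), the collagen IV chain Col4a2 at 0.86 ± 0.214 (adjusted p = 0.00408), the secreted ligand Tgfbi at 3.03 ± 0.669 (adjusted p = 0.00144) and agrin, Agrn, at -0.41 ± 0.105 (adjusted p = 0.00468). Of 32 tested integrin adaptors and adhesion genes 5 rose and 2 fell, with a median of 0.03. The matrix receptor Sdc4 was at -1.03 ± 0.11 (adjusted p = 1.94e-08), the urokinase receptor Plaur at 2.59 ± 0.573 (adjusted p = 0.00144), the adaptor Parvb at 1.38 ± 0.336 (adjusted p = 0.00341) and paxillin, Pxn, at -0.50 ± 0.14 (adjusted p = 0.00998). With the clone label as a random block, where 16.6% of all probe sets passed, 1 of the laminin receptor genes rose and 7 fell, 2 of the basement membrane genes rose and 5 fell, and 3 of the adaptors rose and 2 fell. Without both sets of clone labels that stand apart, where 9.19% passed, 1 laminin receptor gene fell (Sgce, -0.74, adjusted p = 0.00658), 1 basement membrane gene fell (Nid2, -1.52, adjusted p = 0.00159), and 1 adaptor rose and 1 fell (Sdc4, -0.96, adjusted p = 1.10e-05). In that fit Tgfbi was at 1.59 (adjusted p = 0.135), Plaur at 1.60 (adjusted p = 0.131), Col4a2 at 0.47 (adjusted p = 0.239), Agrn at -0.35 (adjusted p = 0.0903), Sspn at -0.59 (adjusted p = 0.160), Pomt2 at -1.04 (adjusted p = 0.0642), Utrn at -0.16 (adjusted p = 0.172), Parvb at 0.78 (adjusted p = 0.240) and Pxn at -0.46 (adjusted p = 0.0659). None of these 3 lists had a member past the threshold in the Cdca7l comparison.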

How the data were processed

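The submitters' table gives deposited log2 values of 45101 probe sets, 1 column per array (37), which were made with GCRMA and Partek 6.5, per the submitters' processing notes. A joint normalization of the arrays is neither stated nor denied in the sources used, and the log2 values were taken as deposited by the authors. Such values carry no read depth, and precision rests on how many arrays there are. The platform annotation gave 1 symbol to 34958 probe sets, several to 932 (not named here) and none to 9211. Probe sets above the table median (3.19) on 4 or more arrays were tested, without 64 control probe sets, which left 25579. Of the 28 members 19 were tested, each through 1 probe set.

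One linear model in limma 3.58.1 (R 4.3.3, with statmod 1.5.0 for blocks) held a mean for each of 8 groups over all arrays, with 29 residual degrees of freedom. It gave 12 comparisons, each with Benjamini-Hochberg adjustment over all probe sets and a threshold of 0.05, and every adjusted p printed comes from such a limma fit. Folds follow from log2 differences, and "at least" sets the 129 mean against the background level where no B6 array exceeded it. P-values rest on the spread between arrays of a group, taken as independent although arrays of a clone label are correlated. They do not speak to variation between mice, since the labels do not say which animals a culture came from. The fit was first tested on simulated data.

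Deviations of arrays with the same clone label correlated at 0.432 to 0.775 in B6 females, 0.376 to 0.572 in B6 males, 0.061 to 0.716 in 129 females and -0.0887 to 0.623 in 129 males. In 129 the low values were those of 2(3) in females (0.061) and 3(3) in males (-0.0887), and the other pairs lay between 0.416 and 0.716. Pairing was thus taken to hold in B6 but not throughout 129. The main fit used it in neither strain, and the block fits and the counts over shared clone labels used the labels of both. Every member is named, with full statistics for at most 10 past the threshold in a comparison, or otherwise for the 3 with the smallest p, and at most 4 called genes per other list. Members, lists and markers were chosen with earlier results of these data known. The alternatives were another variance prior, no filter or a stricter one, quantile normalization, array weights, the clone label as a fixed or random replicate block, the compared groups alone, the second probe set, 1 probe set per gene, and fits without single arrays or clone labels.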

Additional observations from a re-analysis of the deposited data

Results flagged for a closer look

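Of 140 combinations of a member and a group of 4 or 5 arrays, 14 had an array whose distance from the rest was large against the range of its group. For normally distributed values chance gives such an array in about 1 in 20 groups. That rate does not hold for groups that lie under background but for a single array, as with Lama1 and Itga9 below. The 14 can therefore not be read as more than chance gives. Of these, 7 lay on the clone labels B6 female 6(3) and B6 male 4(3): Itga4 on B6 female 6(3) at 6.62 with Cdca7l and 6.48 with the vector, Lama4 at 10.39 and Itga3 at 12.23 on the same vector array, and on B6 male vector 4(3) Itga4 at 5.90, Itga8 at 6.99 and Lama2 at 8.44. The other arrays of their groups reached 2.86, 3.39, 9.17, 10.63, 3.20, 3.43 and 6.72 at most, in that order. On 129 female Cdca7l 1(3), Lama1 was at 4.15 and Itga9 at 5.57, where the other arrays of the group did not exceed 2.28 and 2.51. Lama3 was at 5.11 on 129 female vector 2(3), with 2.40 as the highest of the others, and Itga8 at 6.61 on 129 female Cdca7l 4(1), with 3.07 as the highest of the others. The other 3 values were low: Itgb8 was at 10.81 on 129 male vector 3(3), where the others began at 12.68, Itga6 at 11.55 on B6 male Cdca7l 5.6(1), where the others began at 12.16, and Itga1 at 11.79 on B6 female Cdca7l 4(5), where the others began at 12.35.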

How the results depend on the processing

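No Cdca7l comparison gained a member under any alternative run, including the fixed and the random replicate block. The count of members higher and lower in 129 (9 and 3) changed by over 1.5 times in these settings: lower 1 with the random replicate block, higher 4 and lower 1 without 129 male 3(1) and 5(1), higher 4 without 129 female 2(1) and 4(1), and higher 3 without both, the last 3 being chosen after seeing the data; leaving out 1 array gave 7 to 11 higher and 2 to 4 lower. In females (1 and 2) it was higher 0 and lower 1 without a filter, with the random replicate block and with the compared groups alone, higher 7 with array weights, and lower 1 with quantile normalization, with the second probe set, without 129 female vector 1(3) and B6 female vector 5.1(1), and without either or both sets of labels; leaving out 1 array gave 0 to 2 higher and 1 to 3 lower. In males (7 and 1) it was higher 3 and lower 0 with the random replicate block, higher 2 and lower 0 without 129 male 3(1) and 5(1) and without both sets, and higher 4 and lower 0 with the second probe set; leaving out 1 array gave 3 to 7 higher and 0 to 2 lower. With array weights 4 members passed by sex (Itga1, Itga9, Itgb8, Lamb2) and 5 by strain and sex, where 25.2% and 24.3% of all probe sets passed too, and with the second probe set 1 passed by sex (Lama4). That Lama4 probe set was above background on 7 of 37 arrays.

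These differences changed sign, and none had passed except that of Itga5 between the strains. With the second probe set, Itga5 was at -0.012 by strain, 0.57 for Cdca7l in 129 males and 0.32 for Cdca7l by strain, Itga4 at 0.32 for Cdca7l in 129 males, Itga1 at -0.31 for Cdca7l in 129 females, and Itga9 at -0.10 by sex and -0.13 by strain and sex. These second probe sets were above background on 12 of 37 arrays for Itga5, 8 for Itga4, 4 for Itga9 and all 37 for Itga1. With the fixed replicate block, Itga7, Itgb5 and Itgb8 were at 0.063, 0.068 and -0.0049 for Cdca7l in B6 females, and Itgb5 at -0.10 for Cdca7l by sex. With array weights, Itga1 was at -0.19 and Itgb5 at 0.054 for Cdca7l in 129 females, and Itgb5 at -0.054 and Lama3 at 0.018 for Cdca7l by sex. Without 129 female vector 1(3) and B6 female vector 5.1(1), Lamc1 was at -0.26 for Cdca7l in 129 females and 0.13 for Cdca7l by sex; with 1 array left out it ran from -0.26 to 0.96 and from -0.52 to 0.094, and Lama3 for Cdca7l by sex from -0.76 to 0.052. The cause of these changes was not tested.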
